A study of Homo sapiens with 6 samples.

Results

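The transcripts described here encode nucleolar factors that build ribosomes, a list of 54 genes. A member was measured where the array annotation ties at least 1 probe set (a group of short oligonucleotides read as 1 signal) to that gene alone, and the brightest such probe set stood for it. This held for 46 of the 54, out of 11963 genes with such a probe set on the array, and the 46 lie on 17 chromosomes. NOP56, NOP58, DKC1, BOP1, EBNA1BP2, GNL3, LYAR and NOB1 had none in the annotation used and are not reported, and for NOP56, DKC1 and BOP1 the probe sets carry the names of small RNA genes as well. The cells were HL60, an established human promyelocytic leukemia line. The 3 arrays called tretinoin are of HL60 cells kept for 5 days with tretinoin (all-trans retinoic acid, which activates retinoic acid receptors) at 1 μmol/l in dimethyl sulfoxide (DMSO) at a final concentration of 0.1%. The 3 arrays called DMSO are of HL60 cells given that solvent alone at the same concentration for the same time. A figure legend of the study says that 1 pool of labeled product per condition was hybridized to all of its arrays, so every p-value below measures the spread between hybridizations of 2 pools of 1 cell line and not between cultures.

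Ribosome assembly begins in the nucleolus, where RNA polymerase I transcribes the long precursor of the ribosomal RNAs. Small nucleolar ribonucleoproteins guide the chemical modification of that precursor, and large sets of assembly factors fold it, cut it and load it with ribosomal proteins to give the small and the large subunit. The process is among the most costly in a growing cell, and nucleoli are prominent in immature myeloid cells and shrink as granulocytes mature.

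Deposited signals were MAS5 intensities. Mean signal was 91.3 to 132.7 on the tretinoin arrays and 121 to 152 on the DMSO arrays, with tretinoin replicate 2 the dimmest. After scaling to an equal mean, 54.9% to 60.1% of the 22283 probe sets exceeded the floor of 20 that the study used as baseline. Summed over 6 markers of myeloid progenitors (MPO, ELANE, PRTN3, AZU1, CTSG and MYB), the signal was 311 to 369 on the tretinoin arrays and 4156 to 4698 on the DMSO arrays, and all 6 were called lower. The 4 markers of granulocytic response (CD38, ITGAM, NCF1 and FCER1G) were called higher. Of the other lineages, 3 T cell, 1 B cell, 1 erythroid and 3 megakaryocyte markers were tested, and none was called. The rest of their markers on the array were too dim to test. The 3' to 5' signal ratio of the ACTB control probe sets, which tracks how intact the RNA is and how far labeling ran, stood at 1.14 to 1.17 on the tretinoin arrays and 1.38 to 1.42 on the DMSO arrays, and that of GAPDH was 1.15 to 1.19 on the tretinoin arrays and 1.06 to 1.17 on the DMSO arrays. The part of this difference in the changes below was not tested. In bulk RNA on arrays of equal mean signal, less of a transcript per cell and fewer cells that carry it cannot be told apart, nor can a change in the total RNA of a cell be seen.

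Most nucleolar factors were lower after tretinoin and none was called higher. Of the 45 members tested, 34 were lower by limma, which means a fitted change of 1.5-fold or more with a Benjamini-Hochberg adjusted p, over all probe sets tested, below 0.05, and 11 were not called. Of all genes tested, 14.3% were lower and 13.5% were higher by the same rule. With values as deposited, without scaling, 36 of the 45 were lower, and the shares over all genes were 17.9% lower and 8.59% higher. The median log2 change of the members was -0.97, beside -0.04 over all genes tested (unscaled, -1.17 beside -0.22). In 20 members the fall was at least 2-fold with an adjusted p under 0.05, against 6.81% of all genes. The 3 tretinoin arrays all lay below the 3 DMSO arrays for 38 of the 45, against 24.7% of all genes tested. These 45 exclude WDR46, a small subunit factor, which was at the floor on every tretinoin array and on 2 DMSO arrays and was at 47.3 on DMSO replicate 3. The members were chosen with earlier results of these arrays known, so their direction and these counts are not independent evidence. NOLC1, WDR12 and SDAD1 are also among the transcripts that the study picked on these same arrays.

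**Figure D1:**
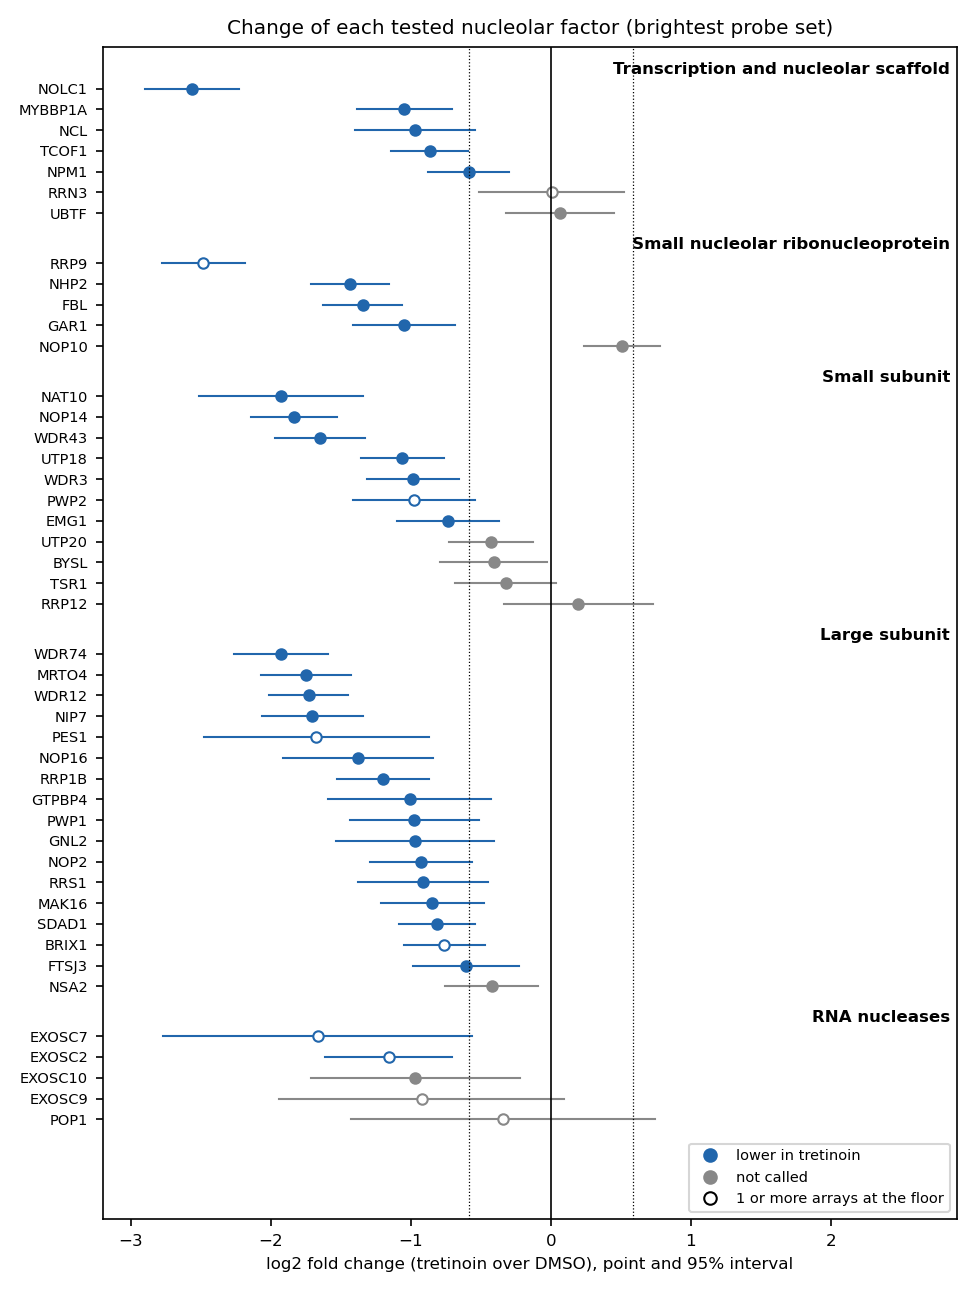
Fitted log2 fold change (tretinoin over DMSO, horizontal axis) of each of the 45 tested nucleolar factors, grouped by role, with 95% intervals from limma (3 arrays per condition). Blue marks members called lower, gray those not called and open circles those with 1 or more arrays at the floor of 20, and dotted lines mark 1.5-fold. In the large subunit group 16 of 17 members are blue, and NOP10 is the member farthest to the right of 0.

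A short sequence, the E-box, was present in the promoters of some of these genes. The members were chosen with earlier results of these arrays known, and the part of that choice in the shares below was not tested. RefSeq windows of 300 bases (GRCh38.p14, 250 bases before the start site and 50 after it) were at hand for 45 of the 54 members. None was at hand for NOLC1, NOP58, BOP1, RRP1B, RRP12, RRS1, TCOF1, MAK16 and POP1, so these were not searched. The E-box CACGTG, which reads the same on both strands and is the core sequence bound by MYC with MAX and by related factors, was present in 22 of these 45 (48.9%), against 13.1% of the 6733 tested genes with a window and 8.77% of all 27305 genes with one. Of the 38 tested members with a window, 18 (47.4%) held it. Counted by window and not by gene, 7.26% of all 35116 windows did. In 19 of the 22 members the E-box lay within 50 bases of the start site, as it did in 383 of the 879 tested genes that hold one. The ETS-type motif CCGGAAG, searched on both strands, was present in 18 of the 45 members and in 21.1% of tested genes. The palindromic NRF1 motif was present in 5 members (11.1%) and 2.61% of tested genes, and a YY1 motif in 1 member (2.22%) and 3.70%. Of the 38 tested members with a window, 16 held the ETS-type motif, 3 (7.89%) the NRF1 motif and 1 the YY1 motif. None of these 4 strings holds another. Of the members both tested and with a window, 15 of 18 with an E-box and 14 of 20 without one were called lower, with median log2 changes of -1.05 and -0.97. Among all tested genes the shares called lower were 20.3% with an E-box and 13.9% without. For the NRF1 motif these shares were 19.3% with and 14.6% without. They were 16.9% and 14.2% for the ETS-type motif, and 15.7% and 14.7% for the YY1 motif. A match is a string of letters and not a measured binding site.

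**Figure D2:**
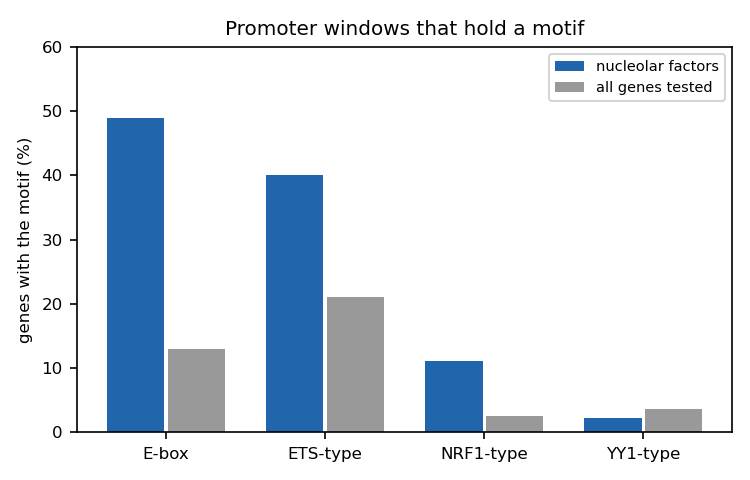
Share of genes (vertical axis, percent) whose promoter window holds each of 4 motifs, for the 45 nucleolar factors with a window (blue, left bar) and the 6733 tested genes with a window (gray, right bar). The E-box stands at 48.9% of the nucleolar factors and 13.1% of tested genes.

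Windows of 80 bases around the start site are shown to let the E-box be seen in place. They run from 50 bases before the start site to the thirtieth base of the transcript, 5′ to 3′ on the strand of the gene, with the E-box in capitals. RRP9, NAT10, NOP14, MRTO4, PES1 and WDR43 are the members with an E-box in this window and a single annotated start that fell most. WDR12 and NOP10 were added by hand, so the windows shown do not give the share of members with an E-box. WDR12 is 1 of the 14 tested members without an E-box in their 300 bases that were called lower. NOP10 holds one and did not fall, and BYSL and UTP20, which also hold one in their 300 bases, were not called.
RRP9 (chr3:51941875-51941954, minus strand): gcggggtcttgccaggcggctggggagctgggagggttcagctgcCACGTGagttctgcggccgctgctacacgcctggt
NAT10 (chr11:34105579-34105658, plus strand): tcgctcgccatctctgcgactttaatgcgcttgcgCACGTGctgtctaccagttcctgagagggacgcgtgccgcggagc
NOP14 (chr4:2963377-2963456, minus strand): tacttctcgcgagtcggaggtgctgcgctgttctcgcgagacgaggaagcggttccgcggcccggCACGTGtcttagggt
MRTO4 (chr1:19251755-19251834, plus strand): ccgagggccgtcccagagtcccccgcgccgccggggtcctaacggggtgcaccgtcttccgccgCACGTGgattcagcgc
PES1 (chr22:30591881-30591960, minus strand): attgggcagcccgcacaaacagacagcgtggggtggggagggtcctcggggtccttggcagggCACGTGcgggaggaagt
WDR43 (chr2:28894617-28894696, plus strand): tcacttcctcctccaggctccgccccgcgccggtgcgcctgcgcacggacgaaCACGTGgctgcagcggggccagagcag
WDR12 (chr2:202911644-202911723, minus strand): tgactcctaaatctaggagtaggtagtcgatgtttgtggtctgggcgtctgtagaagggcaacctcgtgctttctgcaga
NOP10 (chr15:34343107-34343186, minus strand): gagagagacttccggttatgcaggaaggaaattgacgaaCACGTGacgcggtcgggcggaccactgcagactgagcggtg
The E-box began 5 bases before the start site in RRP9, 15 before it in NAT10 and 11 before it in NOP10. It began 3 bases after the start site in WDR43, 13 after it in PES1, 14 after it in MRTO4 and 15 after it in NOP14.

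Among the factors of ribosomal RNA transcription and of nucleolar structure, the scaffold proteins were lower and the transcription factors proper were not called. Of 7 tested, 5 were lower and 2 were not called. NOLC1 (also known as Nopp140) is a phosphoprotein that binds and chaperones small nucleolar ribonucleoproteins. Its scaled signal was 111, 146 and 129 on the tretinoin arrays, against 762, 726 and 775 on the DMSO arrays. Both sets were tight and far apart, and the 5.86-fold fall had the largest fitted change of any member tested (log2 change -2.56 ± 0.14, SE, adjusted p = 4.85e-05 by limma). NCL, nucleolin, which binds the nascent ribosomal RNA, read 997, 693 and 1007 on the tretinoin arrays, against 1890 (1889.7), 1656 and 1659 on the DMSO arrays. Tretinoin replicate 2 was the lowest, the conditions did not overlap, and the fall was 1.93-fold (adjusted p = 0.00640). MYBBP1A, a nucleolar protein that binds MYB, read 40.9, 41.6 and 35.0 on the tretinoin arrays, against 84.6, 71.5 and 86.5 on the DMSO arrays, 2.06-fold lower (adjusted p = 0.00165). TCOF1, treacle, which brings RNA polymerase I factors to the ribosomal genes, was 1.82-fold lower. NPM1, nucleophosmin, an abundant nucleolar chaperone, averaged 2238 ± 165 in tretinoin and 3355 ± 59.7 in DMSO (SD, n = 3 arrays each). Its fall lay on the border of 1.5-fold (log2 change -0.59) and passed no longer with median scaling (-0.57) or quantile normalization (-0.47), with an offset in place of the floor (-0.58), or without tretinoin replicate 2 (-0.54), tretinoin replicate 3 (-0.58) or DMSO replicate 1 (-0.57).

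UBTF and RRN3, the initiation factors of RNA polymerase I among the members, were not called. UBTF, which bends and opens ribosomal gene chromatin, read 56.2, 46.1 and 65.9 on the tretinoin arrays, against 50, 53.2 and 56.1 on the DMSO arrays. The arrays overlapped, and the log2 change was 0.06 (95% interval -0.32 to 0.45). RRN3, which joins the polymerase to its initiation complex, read 26.2, 20 and 29.6 in tretinoin and 31.3, 20 and 24.4 in DMSO, with 1 array of each condition at the floor and an interval of -0.51 to 0.53. Both were dim, and neither was tested against the members that fell.

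Of the proteins of small nucleolar ribonucleoproteins, 5 were tested and 4 were lower. RRP9, a protein of the U3 particle that is needed for the first cuts of the precursor, was at the floor on tretinoin replicates 1 and 2 and read 20.7 on replicate 3, against 109.6, 106 and 125 on the DMSO arrays. The transcript was thus close to or under the baseline in every tretinoin array and at least 5.59-fold lower (adjusted p = 3.27e-05 by limma). FBL, fibrillarin, the enzyme of box C/D particles that methylates ribose, read 597, 607 and 558 on the tretinoin arrays, against 1527, 1546 and 1396 on the DMSO arrays. These conditions were well separated at high signal, 2.54-fold apart (log2 change -1.34 ± 0.12, SE, adjusted p = 2.65e-04).

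The box H/ACA particles, which turn uridine into pseudouridine and also hold telomerase RNA, share 4 core proteins, of which DKC1 had no probe set of its own. NHP2 read 236, 228 and 248 on the tretinoin arrays, against 646, 607 and 671 on the DMSO arrays, a 2.70-fold fall (adjusted p = 2.03e-04). GAR1 was 2.09-fold lower, at 90.8 ± 2.83 in tretinoin and 189 ± 31.3 in DMSO (SD, n = 3 arrays each). NOP10, the smallest core protein, was the exception. Its signal was 767, 710 (710.3) and 751 on the tretinoin arrays, against 515, 513 and 538 on the DMSO arrays. All 3 tretinoin arrays lay above the DMSO arrays, where 21.5% of all genes tested showed that pattern, and the 1.42-fold higher mean had an adjusted p of 0.0142 by limma but stayed under the minimum of 1.5-fold (log2 change 0.51, 95% interval 0.24 to 0.78). The interval of NOP10 lies above 0 and those of NHP2 (-1.71 to -1.15) and GAR1 (-1.41 to -0.68) lie below it.

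**Figure D3:**
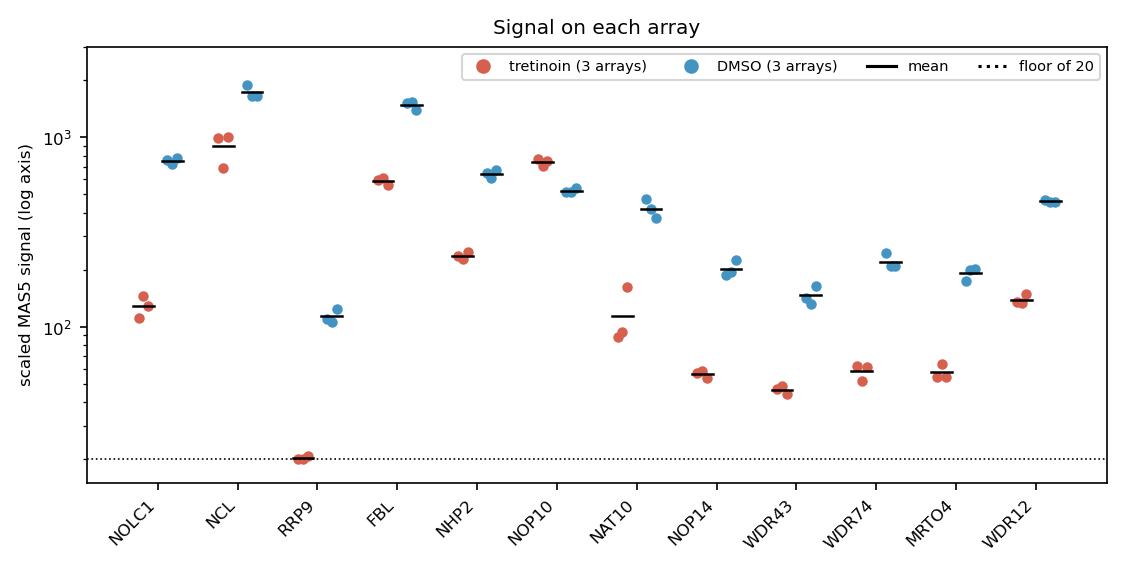
Scaled MAS5 signal (vertical log axis) of 12 nucleolar factors on each array, with the 3 tretinoin arrays (red) left of the 3 DMSO arrays (blue), bars at the means and a dotted line at the floor of 20. RRP9 lies on the floor in tretinoin and at 106 to 125 in DMSO, and NOP10 is the one gene of the 12 whose tretinoin arrays lie above its DMSO arrays.

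Most factors of the small subunit were lower, but several were not called. Of 11 tested, 7 were lower and 4 were not called. NAT10, which acetylates cytidines of the small subunit RNA, read 88.5, 93.6 and 161 on the tretinoin arrays, against 471, 416 and 376 on the DMSO arrays. Tretinoin replicate 3 stood above the other two but far under the DMSO arrays, and the fall was 3.68-fold (adjusted p = 0.00125). NOP14, a core protein of the early small subunit processome, read 57.1, 58.5 and 53.8 on the tretinoin arrays, against 188, 194 and 224 on the DMSO arrays, a fall of 3.57-fold (adjusted p = 1.1e-04). WDR43, which joins that processome as the precursor is transcribed, read 46.7, 48.7 and 44.1 on the tretinoin arrays, against 141, 132 and 165 on the DMSO arrays. The tretinoin arrays were close together and the fall was 3.14-fold (adjusted p = 1.95e-04).

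UTP18, WDR3 and PWP2 belong to 1 early complex, known in yeast as UTP-B, and all 3 were called lower. UTP18 averaged 158 ± 12.2 in tretinoin and 330.0 ± 14.7 in DMSO (SD, n = 3 arrays each). WDR3 averaged 71.3 ± 8.57 in tretinoin and 141 ± 8.10 in DMSO. PWP2 was at the floor on every tretinoin array and read 35.4, 33.5 and 51.3 on the DMSO arrays, at least 2.003-fold lower. With a floor of 40 its call was lost (log2 change -0.12), since most of its values then lie at the floor. EMG1, which methylates a pseudouridine of the small subunit RNA, was 1.66-fold lower (adjusted p = 0.0102).

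Of the 4 not called, UTP20 had an adjusted p of 0.0398 but a change of only 1.35-fold. BYSL, bystin, which acts late in small subunit assembly, had a log2 change of -0.41 (95% interval -0.79 to -0.03), and TSR1, a late factor that resembles a translation GTPase, had -0.32 (-0.68 to 0.04). In RRP12, which helps pre-ribosomes leave the nucleus, the arrays overlapped at 34.4 to 41.1 in tretinoin and 23.7 to 42.4 in DMSO. Dimmer probe sets of TSR1 and RRP12 were lower, as given further on.

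Large subunit factors were lower in 16 of 17 cases. WDR74 acts with the exosome on early large subunit precursors. It read 62.2, 51.4 and 61.0 on the tretinoin arrays, against 245, 209 and 209 on the DMSO arrays, a 3.79-fold fall and the greatest in this group (adjusted p = 1.35e-04). MRTO4 is the nucleolar look-alike of the stalk protein P0, whose place it holds until late in assembly. It read 54.0, 64.0 and 54.2 on the tretinoin arrays, against 175, 200 (199.8) and 203 on the DMSO arrays, and fell 3.36-fold (adjusted p = 1.59e-04). NIP7, which binds RNA of the pre-ribosome, read 26.5, 28.9 and 29.2 on the tretinoin arrays, against 109.5, 80.8 and 86.8 on the DMSO arrays, and fell 3.28-fold.

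PES1 and WDR12 form the PeBoW complex with BOP1, which matures the large subunit RNAs. WDR12 read 135, 132.8 and 148 on the tretinoin arrays, against 468, 456 and 454 on the DMSO arrays, and fell 3.31-fold with little spread in either condition (log2 change -1.73 ± 0.12, SE, adjusted p = 1.02e-04). PES1 read 44.6, 20 and 50.8 on the tretinoin arrays, against 109.2, 110.1 and 122 on the DMSO arrays. It was lower on all tretinoin arrays, with tretinoin replicate 2 at the floor, and at least 2.96-fold lower (adjusted p = 0.00892). Without a filter on low values this call was lost (adjusted p = 0.0699).

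The other 11 members called lower in the large subunit group fell less, by 1.51-fold to 2.65-fold (for BRIX1, a bound). NOP16, named for its place in yeast nucleoli, was 2.65-fold lower, at 93.2 ± 12.6 in tretinoin and 247 ± 67.2 in DMSO (SD, n = 3 arrays each). RRP1B was 2.30-fold lower. NOP2, which methylates a cytidine of the large subunit RNA, was 1.88-fold lower, and SDAD1, known in yeast for export of the large subunit, was 1.76-fold lower. RRS1 was 1.86-fold, MAK16 1.79-fold and PWP1 1.93-fold lower. Without a filter on low values the call of RRS1 was lost. BRIX1 was at the floor on every tretinoin array and read 36.5, 31.1 and 34.2 on the DMSO arrays, at least 1.70-fold lower, a call that a floor of 40, above all of its values, cannot make.

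For the nucleolar GTPases GNL2 and GTPBP4 and for FTSJ3, a methyltransferase, the call was lost under several alternatives. Without a filter on low values the adjusted p was 0.0966 for GNL2, 0.0993 for GTPBP4 and 0.0681 for FTSJ3, and with median scaling it was 0.0679 for FTSJ3. An offset in place of the floor took FTSJ3 under 1.5-fold (log2 change -0.52). GNL2 read 56.6, 30.4 and 49.9 on the tretinoin arrays, against 91.3, 83.8 and 84.4 on the DMSO arrays, and its adjusted p of 0.0192 became 0.0627, 0.0547 and 0.0549 without DMSO replicate 1, 2 and 3. GTPBP4 read 54.0, 30.4 and 50.5 on the tretinoin arrays, against 89.7, 74.6 and 100.5 on the DMSO arrays. Its adjusted p of 0.0193 became 0.0598 without DMSO replicate 1 and 0.0680 without DMSO replicate 3. A dimmer GTPBP4 probe set, at the floor on tretinoin replicate 3, was also called lower (log2 change -1.26, adjusted p = 0.0120 by limma). FTSJ3, at 1.51-fold, had an adjusted p of 0.0259, which became 0.0642 without tretinoin replicate 2, 0.0838 without tretinoin replicate 3, 0.0841 without DMSO replicate 2 and 0.0664 without DMSO replicate 3. Their arrays did not overlap between conditions. NSA2, the only large subunit factor not called, read 311, 258 and 327 on the tretinoin arrays, against 416, 404 and 376 on the DMSO arrays (log2 change -0.42, adjusted p = 0.0583).

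Of the 5 tested proteins of complexes that cut or trim ribosomal RNA (the exosome, RNase MRP and RNase P), 2 were lower and 3 were not called. EXOSC2, a cap protein of the RNA exosome, read 20.4 on tretinoin replicate 1 and was at the floor on replicates 2 and 3, against 56.0, 47.0 and 34.5 on the DMSO arrays, at least 2.27-fold lower (adjusted p = 0.00374). With a floor of 40 that call was lost (log2 change -0.24). EXOSC7, a protein of the exosome ring, read 69.7, 20 and 68.6 on the tretinoin arrays, against 146, 139 and 151 on the DMSO arrays. Tretinoin replicate 2 alone was at the floor, and the adjusted p of 0.0321 rose to 0.0850, 0.0826 and 0.0910 without DMSO replicate 1, 2 and 3. The call of EXOSC7 was also lost without a filter on low values and with a floor of 10. EXOSC10, the nuclear exonuclease of the exosome, had a log2 change of -0.97 but overlapping arrays, since tretinoin replicate 2 read 46.8 against a lowest DMSO value of 45.9 (adjusted p = 0.0549). EXOSC9 averaged 32.4 ± 11.2 in tretinoin and 64.0 ± 30.7 in DMSO (SD, n = 3 arrays each) and was not called (adjusted p = 0.152), but passed without DMSO replicate 1 (adjusted p = 0.0416). POP1, a protein of RNase MRP and RNase P, was above the floor on only 3 arrays, and its log2 change of -0.34 rested on DMSO replicate 1 at 65.6, without which it was 0.23.

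Probe sets of the same gene were compared next. The 46 members have 69 single-gene probe sets, of which 64 were tested, 45 were lower, 1 was higher and 18 were not called, where 13.8% of all probe sets tested were lower and 13.6% were higher. For 13 members with 2 or more tested probe sets, the change on the brightest was tested against that on each other one, with limma on the per-array difference over all 3508 such pairs on the array. Of 19 member pairs, 4 differed at an adjusted p under 0.05 and by at least 1.5-fold, where 3.99% of all pairs did, and in all 4 the brightest probe set had fallen more. Pairs of 1 gene share the brightest probe set and are not independent. A larger share of members than of all genes was called, so 3.99% is not a share over genes that change alike. A probe set near the floor can show little of a fall.

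NOLC1 held 2 of these pairs. Its dimmer probe sets fell 2.62-fold and 2.09-fold, and read 73.1 to 88.1 and 50.3 to 62.0 on the tretinoin arrays, against 208 to 226 and 88.6 to 139 on the DMSO arrays. All 3 fell, with differences of changes of -1.16 ± 0.22 and -1.52 ± 0.21 on the log2 scale (SE, adjusted p = 0.0276 and 0.00918 by limma). In NOP16, a probe set whose name ends in x, the maker's mark for oligonucleotides that can match other transcripts, read 35.7, 50.3 and 27.1 on the tretinoin arrays, against 20, 20 and 20.8 on the DMSO arrays. It was called higher, the one such probe set of a member, and differed from the brightest by -2.23 ± 0.29 (SE, adjusted p = 0.00743). Another NOP16 probe set fell 2.04-fold along with the brightest. In UTP18 the second probe set read 20 to 25.9 in tretinoin and 20 to 24.8 in DMSO, so that it lay near the floor in both conditions (adjusted p of the difference = 0.0299).

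In other members a call hung on the probe set without a difference that passed. TSR1 was not called on its brightest probe set, an x type, but its other probe sets were at least 1.91-fold and 2.71-fold lower. RRP12 had 1 probe set of 3 called lower, at the floor on all tretinoin arrays and at 27.2 to 43.2 on the DMSO arrays. RRP1B, EXOSC7, PWP1 and TCOF1 each had a dimmer probe set that was not called, with log2 changes of -0.40, -0.13, -0.08 and -0.42. All 3 probe sets of NPM1 fell, by 1.499-fold, 2.001-fold and 1.82-fold, and those of WDR74 fell 3.79-fold and at least 2.66-fold. The number of differing pairs itself moved with the arrays and was 1 without tretinoin replicate 1, 3 without tretinoin replicate 2, 1 without tretinoin replicate 3 and 2 without any 1 of the DMSO arrays.

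**Figure D4:**
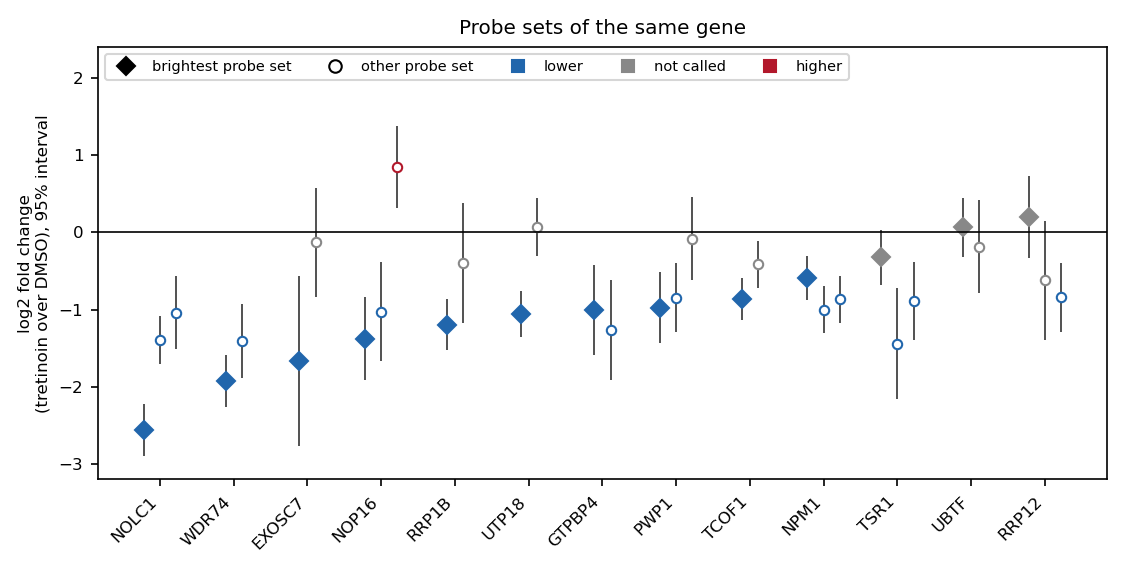
Fitted log2 fold change (tretinoin over DMSO, vertical axis) with 95% intervals for each tested probe set of the 13 members with more than 1, ordered by the brightest probe set (diamond). Blue is called lower, gray not called and red called higher, and the one red point is the NOP16 probe set that was at 20 to 20.8 in DMSO.

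Many other genes of the ribosome assembly pathway were lower too. Of 113 further assembly genes listed, 91 had a probe set of their own, 82 were tested, 46 were lower, none was higher and 36 were not called, with a median log2 change of -0.65. The count of 46 compares with 14.3% of all genes. With no fold minimum none of these 82 was called higher either, and without tretinoin replicate 2 a single one was called higher. RUVBL2, an ATPase that helps assemble small nucleolar ribonucleoproteins, read 76.8, 74.7 and 83.5 on the tretinoin arrays, against 435, 448 and 491 on the DMSO arrays, a fall of 5.85-fold that nearly equals that of NOLC1. WDR18, a large subunit assembly factor, was at least 4.88-fold lower and NLE1, which acts on the same precursors, at least 4.42-fold lower. LAS1L, which takes part in cutting the spacer RNA, was 4.15-fold lower, and TBL3, a protein of the UTP-B complex like UTP18 and PWP2, was at least 3.67-fold lower. The differences in share between the members and this list were not tested.

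Few ribosomal proteins were called. Of 79 cytosolic ribosomal proteins listed, 52 had a probe set of their own. All 52 were tested, and 3 were lower and 1 was higher, beside 14.3% and 13.5% of all genes, with a median log2 change of -0.16. A further 6 passed the adjusted p but not the fold minimum. In 42 of the 52 the log2 change was negative. In 30 of the 52 all tretinoin arrays lay below all DMSO arrays, a larger share than the 24.7% of all genes. RPL12 was 2.01-fold, RPL36 1.91-fold and RPL35 1.58-fold lower, and RPS9 was 1.56-fold higher. Scaled signal before the floor, averaged over the 6 arrays, ran from 54.6 (RPLP2) to 10367 (RPS10) in this list. In the members tested it ran from 21.7 (BRIX1) to 2796 (NPM1). The part of signal level in the size of the changes was not tested. Of 13 tested subunits and initiation factors of RNA polymerase I, some of them shared with other polymerases, 5 were lower and none was higher, beside the same shares of all genes, with a median of -0.31. POLR1E, at 64.5 ± 8.03 in tretinoin and 182 ± 10.1 in DMSO (SD, n = 3 arrays each), fell furthest of these at 2.83-fold. The lists were chosen with earlier results of these arrays known, and no test between lists was made.

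**Figure D5:**
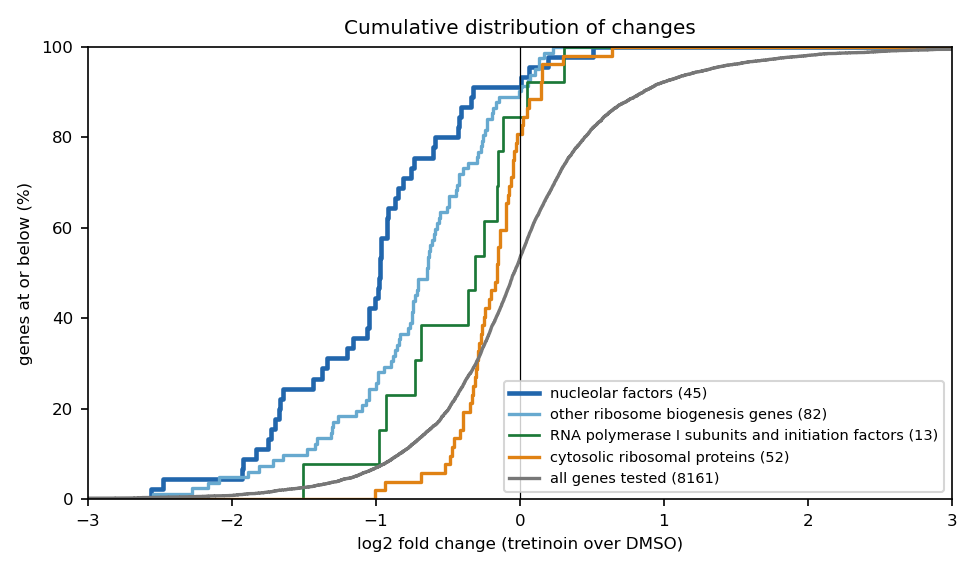
Cumulative share of genes (vertical axis, percent) at or below each fitted log2 fold change (tretinoin over DMSO, horizontal axis), with the number of tested genes in brackets. By median the 45 nucleolar factors were lowest (-0.97), then other ribosome biogenesis genes (-0.65), RNA polymerase I genes (-0.31), cytosolic ribosomal proteins (-0.16) and all genes tested (-0.04).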

How the data were processed

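Total RNA of HL60 cells was read on Affymetrix human genome arrays, 3 of the tretinoin condition and 3 of the DMSO condition. The authors deposited MAS5 signal intensity per probe set on a linear scale. Here each array was scaled to the mean of DMSO replicate 1, a floor of 20 was applied, and limma 3.58.1 (lmFit and eBayes, R 4.3.3) was run on the log2 scale. A probe set was tested if above 20 on at least 3 arrays, and called at a Benjamini-Hochberg adjusted p under 0.05 over all 13374 tested and 1.5-fold or more. Each gene was counted by its brightest single-gene probe set, with genes from the platform annotation. Folds are ratios of condition means of scaled signal, given as "at least" where an array lay at the floor, and log2 changes are fitted. The number of arrays limits precision, and so does signal near the floor. The fit was tested on simulated data. The members and lists were chosen with earlier results of these data known. Values are given for the 3 largest called changes of each role, members called higher, those with disagreeing probe sets or arrays at the floor, and the 5 largest falls among other assembly genes, with the rest in brief. Alternatives changed scaling, floor, filter, variance model, block, fold minimum, probe set and arrays.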

Additional observations from a re-analysis of the deposited data

How the results depend on the processing

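Members called lower numbered 20 with a fold minimum of 2 and 30 to 34 without any 1 array. They numbered 28 of 46 with no filter and 29 of 36 with signal above 20 on all 6 arrays. Of all genes, 6.81% were lower with a fold minimum of 2 and 12.6% to 15.5% without any 1 array. These shares were 7.40% with no filter, 16.5% with signal above 20 on all 6 arrays and 13.7% with the replicate block. The other ribosome biogenesis genes called lower numbered 21 with a fold minimum of 2 and 35 to 43 without any 1 array. Under the 21 alternatives, 13 of the 34 members stayed lower in each that gave a value, and 19 in each except the fold minimum of 2. A member was called higher with no fold minimum (1, NOP10) and on the least bright probe set (1, NOP16), and 0 without any 1 array. Other genes called higher numbered 0 to 1 without 1 array. The median of the members was -1.17 with no scaling, -0.85 with an offset of 16 and -1.06 to -0.93 without 1 array. Probe set pairs that differed numbered 7 with a floor of 40, 2 with signal above 20 on all 6 arrays, 2 with the replicate block and 1 to 3 without 1 array. With the replicate block 33 members were lower, since FTSJ3 lost its call (adjusted p = 0.0679 by limma). Deviations of same-numbered arrays correlated at -0.03, -0.01 and 0.07, so the numbers were not taken to pair the arrays. The sign turned for NOP16 (0.85) and UTP18 (0.072) on the least bright probe set. It turned for UBTF with no scaling (-0.14), over the mean of probe sets (-0.062), on the least bright (-0.19) and without 1 array (-0.059 to 0.20). It turned for RRN3 with no scaling (-0.061) and without 1 array (-0.15 to 0.17), and for POP1 without 1 array (-0.63 to 0.23). It turned for RRP12 with no scaling (-0.0068), a floor of 40 (-0.014), the mean of probe sets (-0.42), the least bright (-0.84) and without 1 array (-0.036 to 0.38). The causes were not tested. Of 637 values of single genes, 580 kept direction and side of the threshold, 36 fell short of it, 4 newly passed it and 17 turned. Signals near 20 limit RRP9, PWP2, BRIX1, EXOSC2 and POP1, whose changes are bounds or rest on few arrays.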
